A study of Mus musculus with 6 samples.

Results

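A set of 9 receptors and ligands of T cell costimulation was followed in regulatory T cells (Tregs) sorted out of mouse tumors: the CD28 family receptors Cd28 and Icos, the nectin-binding receptor Cd226, the CD2 and SLAM family receptors Cd2, Slamf1, Slamf6 and Cd84, and the ligands Cd200 and Cd40lg. They were taken by symbol from the 23420 genes of the counts table, where all 9 were present. The tumors were grown from 10000 transplanted T11 cells, which model triple-negative breast cancer of the claudin-low kind, in Foxp3-GFP mice of strain BALB/c. One group of 3 libraries (numbered 1 to 3) came from untreated mice, and the other (numbered 4 to 6) from mice that received 200 µg of the murine anti-PD-1 antibody J43 intraperitoneally, 2 times each week. All tumors were taken at 150 mm2, and GFP-positive cells were sorted from them. Neither the age of the mice nor the pooling of animals is given in the labels used here. The labels do not tie each library to its own mouse. A p-value here therefore reflects the variation among libraries alone, part of which may be technical.

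CD28 binds CD80 and CD86 on antigen-presenting cells, delivers the classical second signal to T cells, and is needed for the development and upkeep of Tregs. CTLA-4 binds the same ligands more tightly. ICOS, a close relative of CD28, binds ICOS ligand, couples to PI3-kinase and marks activated effector Tregs in tumors. SLAM receptors mostly bind their own kind on a neighbouring cell and signal through the adaptor SAP, and CD2 binds CD48 in the mouse.

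Library totals ran from 4766533 to 6686774 fragments, with the 3 untreated libraries the deepest. Untreated library 1 stood apart: a chi-square of the counts over genes was 20.5 to 25.6 per degree of freedom in its 5 pairs with other libraries and 8.66 to 12.7 in all other pairs. Values are given as CPM, the count relative to the size of its library, scaled by the TMM method, with SDs over 3 libraries per group. Foxp3, Cd4 and Cd3e, which Tregs express, stood at 450.02 ± 11.6, 422 ± 50.3 and 473 ± 89.9 CPM in untreated libraries. After anti-PD-1 they stood at 522 ± 53.5, 477 ± 16.6 and 538 ± 55.4 CPM. Foxp3 and Cd4 were higher in each anti-PD-1 library than in any untreated one, as were 7.18% of all tested genes. Cd3e overlapped. With Il2ra and Ikzf2 added, these 5 Treg markers summed to 4600 to 5230 CPM in untreated and 4168 to 4787 CPM in anti-PD-1 libraries. Here the ranges overlapped, with the anti-PD-1 range the lower, although Foxp3, Cd4 and Cd3e had higher means after anti-PD-1. The 5 markers thus did not move together. Ikzf2, the highest of them, averaged 1982 CPM over the 6 libraries. Markers of other cells that can carry these receptors were low beside Icos, Cd2 and Cd28. Some of the sums reached or passed the levels of Cd40lg and Cd200. In untreated library 1 the fibroblast and tumor sum, at 53.5 CPM, was close to Slamf6 at 53.6 CPM. The summed level of 5 NK cell markers was 7.68 to 9.11 CPM in untreated and 2.88 to 10.8 CPM in anti-PD-1 libraries. That of 2 CD8 T cell markers was 11.05 to 31.1 and 18.7 to 51.1 CPM, and that of 5 B cell markers 3.20 to 10.8 and 4.95 to 19.0 CPM. Macrophage and monocyte markers (7 genes) summed to 3.52 to 12.6 and 8.53 to 10.1 CPM, fibroblast and tumor markers (5 genes) to 27.2 to 53.5 and 36.7 to 50.6 CPM, and mast cell and basophil markers (4 genes) to at most 0.621 CPM. Over all genes, edgeR's quasi-likelihood test called 3 of 10352 tested genes (0.029%), namely Klf2, Jun and Rhob, all higher after anti-PD-1.

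Both gene clusters lie on chromosome 1 of mm10. Cd28 (60746388 to 60773359), Ctla4 (60909025 to 60915830) and Icos (60977914 to 61000321) follow each other on the plus strand, with 136 kb between Cd28 and Ctla4 and 62.1 kb between Ctla4 and Icos. Slamf1 (171767132 to 171801184), Cd84 (171839697 to 171890718) and Slamf6 (171917537 to 171943868) are also neighbours on the plus strand, 38.5 and 26.8 kb apart. Cd2 lies on chromosome 3 (101275908 to 101287939, minus strand), Cd200 on chromosome 16 (45382135 to 45409053, minus strand) and Cd40lg on the X chromosome (57212143 to 57224042, plus strand). No exon of any of the 9 genes was shared with another gene of the counting annotation or of GENCODE M21.

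The promoters of the SLAM neighbours are shown because these 3 receptor genes sit side by side and include Slamf6, which had the highest fold change of the 9 genes. The windows are the 250 bases before the start site in RefSeq (GRCm38.p6), chr1:171766882-171767131 for Slamf1, chr1:171839447-171839696 for Cd84 and chr1:171917212-171917461 for Slamf6, all plus strand. Capitals mark matches, on either strand, to TGANTCA, the letters bound by AP-1 (the family of Jun), or to CCACNCCC, letters bound by Krüppel-like factors (the family of Klf2).
Slamf1: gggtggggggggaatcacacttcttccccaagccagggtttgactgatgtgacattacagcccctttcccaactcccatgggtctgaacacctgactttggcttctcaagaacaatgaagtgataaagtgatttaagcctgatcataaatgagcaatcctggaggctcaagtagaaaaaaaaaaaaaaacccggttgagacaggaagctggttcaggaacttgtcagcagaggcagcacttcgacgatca
Cd84: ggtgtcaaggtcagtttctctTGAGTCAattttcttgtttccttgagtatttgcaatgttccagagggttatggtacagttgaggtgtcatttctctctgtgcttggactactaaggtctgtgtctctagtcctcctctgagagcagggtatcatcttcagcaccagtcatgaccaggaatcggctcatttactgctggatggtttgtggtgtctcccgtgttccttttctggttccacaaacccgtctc
Slamf6: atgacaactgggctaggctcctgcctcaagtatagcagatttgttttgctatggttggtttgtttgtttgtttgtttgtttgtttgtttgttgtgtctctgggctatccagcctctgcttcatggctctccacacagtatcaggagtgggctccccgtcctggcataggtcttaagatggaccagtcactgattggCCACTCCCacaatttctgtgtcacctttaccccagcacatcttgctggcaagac
The Slamf6 window held CCACTCCC, which begins 54 bases before the RefSeq start. Such a match was present in 15.9% of the 32851 RefSeq windows of this length. This window ends at 171917461, upstream of 171917537, where the counted Slamf6 gene begins. The Slamf1 and Cd84 windows end right before the starts of their counted genes. The Cd84 window held TGAGTCA, beginning 229 bases before the start, where 6.75% of windows had a match. The Slamf1 window held neither. A window in this table was found for 4 of the 9 genes, the other being Cd200, whose window also held neither.

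No member of the 9 was called by edgeR after adjustment over all genes, with Benjamini-Hochberg adjusted p from 0.460 for Slamf6 to 0.990 for Cd28. The background of calls was 0.029%, as above. None passed by DESeq2 either, where 0.785% of the genes with an adjusted p were called, or by limma-voom with or without quality weights. At an unadjusted p under 0.05, edgeR placed Icos lower, where 4.08% of all tested genes stood, and Slamf6 higher, where 4.23% stood, together 2 of 9 against 8.31%. The groups did not overlap with lower values after anti-PD-1 for Icos, Cd40lg and Cd2 (6.44% of all tested genes) and with higher values for Slamf6 (7.18%). These 4 of 9 compare with 13.6% of tested genes in either direction, and in the other 5 genes the groups overlapped. Values below 0 were found for 4 of 9 genes, against 49.9% of all tested genes. The median log2 fold change was 0.12 over the 9 genes and 0.0016 over all tested genes.

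**Figure D1:**
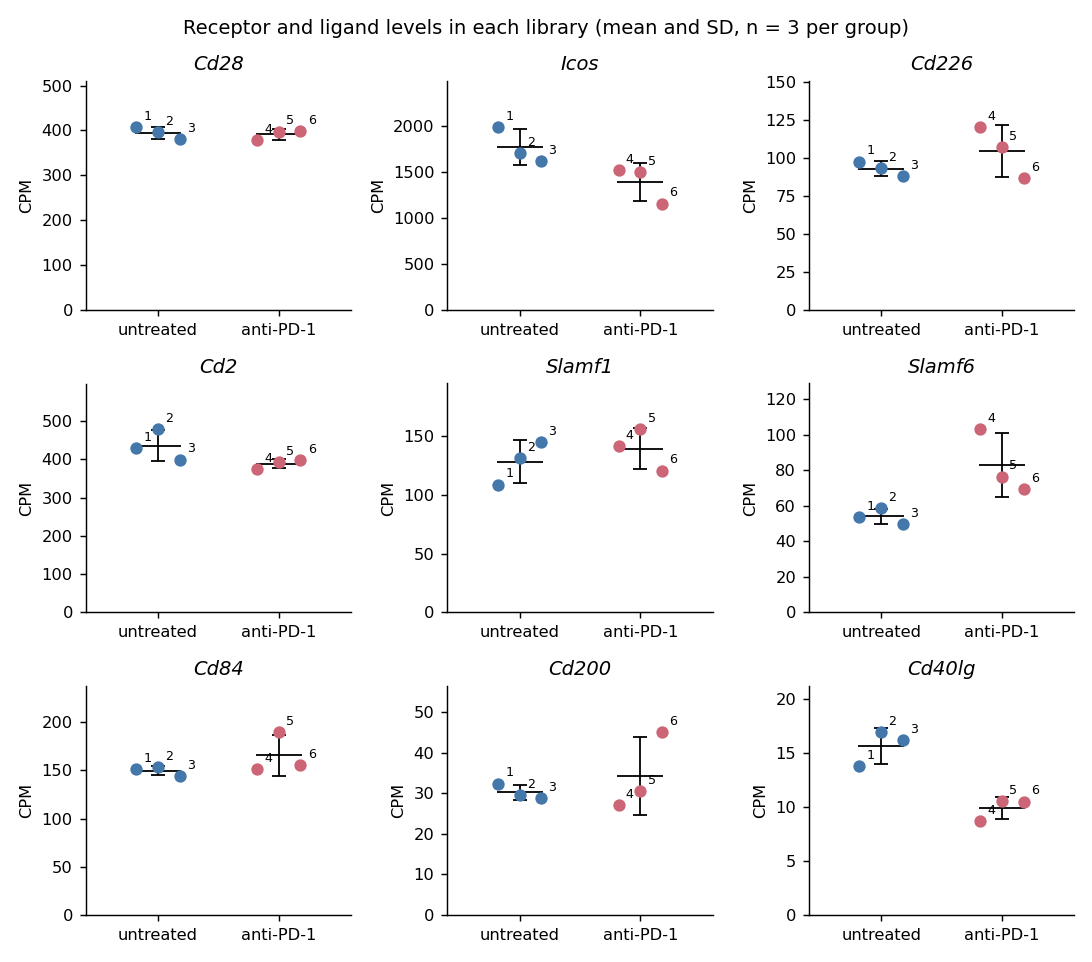
Level in CPM (y axis, from 0) of the 9 genes in each library, numbered as in the labels; black bars are means and SDs over 3 libraries per group. The groups are apart for Icos, Slamf6 and Cd40lg, nearly touch for Cd2 and overlap for the others.

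Within the CD28 family, Cd28 stood at the same level in both groups within its error. Its CPM was 408, 395 and 381 in untreated libraries 1, 2 and 3 and 378, 398 and 399 in anti-PD-1 libraries 4, 5 and 6. The values of the groups were interleaved, and the SDs were 13.6 and 11.8 CPM around means of 395 and 392 CPM. The log2 fold change was -0.01 ± 0.14 (SE), with a 95% interval from -0.30 to 0.28, so changes of up to 0.812-fold or 1.21-fold lie inside the interval.

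Icos was the highest of the 9 genes in every library and lower in each anti-PD-1 library than in any untreated one. It stood at 1993 CPM in untreated library 1, 1711 in library 2 and 1619 in library 3, and after anti-PD-1 at 1525, 1503 and 1157 CPM in libraries 4, 5 and 6. Library 6 lay furthest down and untreated library 1 furthest up. The means were 1774 ± 195 and 1395 ± 206 CPM (SD, n = 3 per group), a fold change of 0.786. On the log2 scale the difference was -0.35 ± 0.14 (SE, 95% interval -0.64 to -0.05), which did not pass edgeR's test over all genes (adjusted p = 0.551). Without anti-PD-1 library 6 the difference was -0.23 with an unadjusted edgeR p of 0.124, so its size rested in part on that library. Without untreated library 1, the library that stood apart, it was -0.26. In these bulk libraries, fewer cells that carry a transcript and less of it per cell cannot be told apart.

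Ctla4, which lies between Cd28 and Icos and encodes the inhibitory rival of CD28, had lower values alongside Icos. It stood at 1839, 1492 and 1733 CPM in untreated and at 1302, 1317 and 1190 CPM in anti-PD-1 libraries. Its log2 fold change was -0.41 ± 0.13 (SE, edgeR adjusted p = 0.449). Cd28, at the left end of this stretch, thus had a value near 0 while its 2 neighbours had values below 0.

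Ratios within a library do not depend on how libraries are scaled against each other. For 4 pairs of receptors, the log2 ratio of counts per kilobase of exon was compared between groups. The test was an exact permutation of the libraries, two-sided, whose smallest possible p is 0.1. The ratio of Icos to Cd28 was 6.48, 5.74 and 5.64 in untreated libraries 1 to 3 and 5.35, 5.02 and 3.85 in anti-PD-1 libraries 4 to 6. All treated libraries lay below all untreated ones, and the mean log2 ratio went from 2.57 ± 0.11 to 2.23 ± 0.25 (SD, n = 3 per group), a difference of -0.34. Without anti-PD-1 library 6 this difference was -0.20. The ratio of Cd28 to Ctla4 was 0.0992, 0.119 and 0.0983 in untreated and 0.130, 0.135 and 0.150 in anti-PD-1 libraries. Here every treated library lay above every untreated one, with a log2 difference of 0.40. In the exact permutation test each of these ratios had p = 0.1, the smallest it can give, and p = 0.2 after Benjamini-Hochberg adjustment over the 4 ratios.

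**Figure D2:**
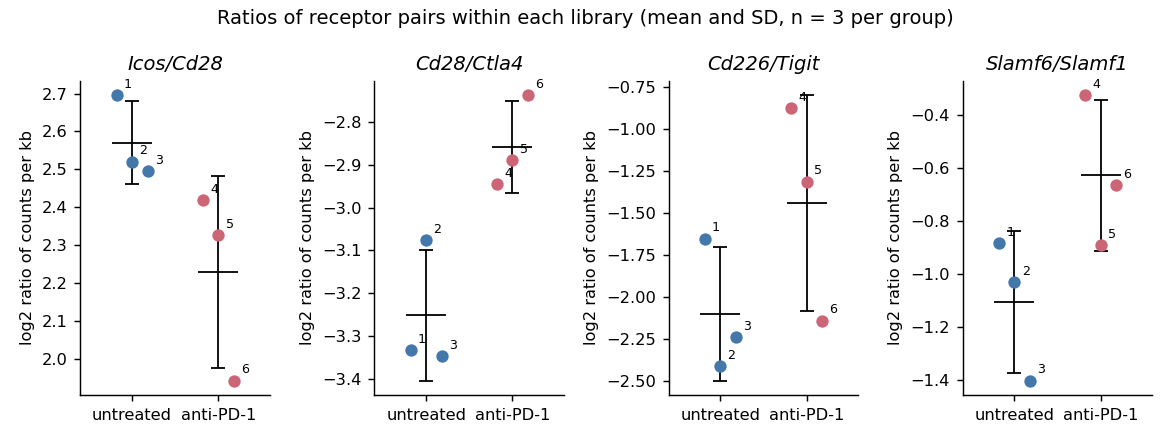
Log2 ratio of counts per kilobase (y axis) for 4 receptor pairs in each library, with means and SDs over 3 libraries per group. The groups are apart for Icos/Cd28 (lower after anti-PD-1) and Cd28/Ctla4 (higher) and overlap for Cd226/Tigit and Slamf6/Slamf1.

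CD226 is an activating receptor for PVR and nectin-2, which TIGIT, an inhibitory receptor, also binds. Cd226 stood at 97.7, 93.3 and 88.0 CPM in untreated libraries and at 121, 107 and 86.7 CPM after anti-PD-1. Libraries 4 and 5 were above all untreated ones and library 6 below them. The log2 fold change was 0.17 ± 0.19 (SE, 95% interval -0.21 to 0.56, edgeR adjusted p = 0.839). Tigit stood at 119, 192 and 161 CPM untreated and 85.5, 103 and 148 CPM after anti-PD-1. The ratio of Cd226 to Tigit was 0.318, 0.188 and 0.212 in untreated libraries and 0.546, 0.403 and 0.227 in libraries 4, 5 and 6. Library 6 lay among the untreated ones, and the log2 difference of 0.66 had an exact permutation p of 0.2. It was 0.374 without anti-PD-1 library 4 and 1.007 without library 6. The NK cell and CD8 T cell markers given above overlapped between the groups, and their part in the Cd226 values was not tested.

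Cd2, an adhesion receptor that lowers the threshold of T cell activation, stood at 430.3, 479 and 399.7 CPM in untreated and 376, 392 and 398.7 CPM in anti-PD-1 libraries. The groups were apart by 1 CPM only, and they overlapped under upper quartile scaling. The log2 fold change was -0.17 ± 0.14 (SE, 95% interval -0.46 to 0.13, edgeR adjusted p = 0.802).

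Slamf6, a SLAM receptor known as a surface marker of stem-like T cells that express TCF-1, had the highest fold change of the 9 genes. Its CPM was 53.6, 58.4 and 49.8 in untreated libraries 1, 2 and 3 and 103, 76.4 and 69.2 in anti-PD-1 libraries 4, 5 and 6. Every treated library lay above every untreated one, with library 4 furthest up, and the treated libraries differed more among themselves (SD 17.8 CPM) than the untreated ones (SD 4.35 CPM). The fold change was 1.54 (95% interval 1.13 to 2.10), or 0.62 ± 0.21 on the log2 scale (SE). It did not pass edgeR's test over all genes (adjusted p = 0.460, unadjusted p = 0.00783). Without anti-PD-1 library 4 it was 0.43, with an unadjusted edgeR p of 0.0845, and without untreated library 1 it was 0.62. The CD8 T cell and B cell markers given above overlapped between the groups, and their part in the Slamf6 values was not tested.

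The SLAM neighbours of Slamf6 had smaller fold changes. Slamf1, the founding member of the family, stood at 109, 131 and 145 CPM untreated and 142, 156 and 121 CPM after anti-PD-1, with overlapping groups. Its log2 fold change was 0.12 ± 0.18 (SE, 95% interval -0.25 to 0.49, edgeR adjusted p = 0.889), and 0.013 without untreated library 1. Cd84 stood at 152, 154 and 144 CPM untreated and 151, 190.2 and 156 CPM after anti-PD-1, where library 5 alone lay clear of the untreated range. Its log2 fold change was 0.14 ± 0.17 (SE, 95% interval -0.20 to 0.49, edgeR adjusted p = 0.854). The ratio of Slamf6 to Slamf1 was 0.543, 0.490 and 0.378 in untreated and 0.799, 0.539 and 0.631 in anti-PD-1 libraries. The log2 difference was 0.48 with overlapping groups (exact permutation p = 0.2, in a test that cannot go below 0.1).

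The ligands were the lowest of the 9 genes per length of exon. CD40 ligand, through which helper T cells license B cells and dendritic cells, was counted with 86, 95 and 96 fragments in untreated and 46, 51 and 51 in anti-PD-1 libraries. Scaled, Cd40lg stood at 13.8, 17.0 and 16.2 CPM and at 8.72, 10.6 and 10.5 CPM. All treated libraries lay below all untreated ones, and the means were 15.6 ± 1.67 and 9.93 ± 1.05 CPM. The log2 fold change of -0.66 ± 0.41 (SE) was the lowest of the 9. As a fold it was 0.635 (95% interval 0.354 to 1.14). It did not pass edgeR's test (adjusted p = 0.707, unadjusted p = 0.121), and DESeq2 gave Cd40lg no adjusted p. Without untreated library 1 the log2 fold change was -0.74. Platelets also carry CD40 ligand, and 4 platelet markers summed to at most 3.52 CPM in any library. Gp9 was at 0 in all, and Itga2b was the highest, with a mean of 1.05 CPM. The part of platelets in the Cd40lg values was not tested.

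CD200 binds its receptor on myeloid cells and restrains them. Cd200 stood at 32.3, 29.5 and 28.8 CPM in untreated and 27.1, 30.4 and 45.1 CPM in anti-PD-1 libraries. Library 6 alone was high, and the other treated libraries lay at or near the untreated range. The log2 fold change was 0.17 ± 0.28 (SE, 95% interval -0.41 to 0.75, edgeR adjusted p = 0.903), and without library 6 it was -0.08. Endothelial cells also express Cd200, and of 4 endothelial markers Cdh5, Kdr and Tek were at 0 in all 6 libraries, while Pecam1, which T cells express too, did not overlap between the groups. It made up the whole of that list, at 64.5 to 73.7 CPM in untreated and 83.6 to 123 CPM in anti-PD-1 libraries. The part of Pecam1-expressing cells in the Cd200 values was not tested.

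**Figure D3:**
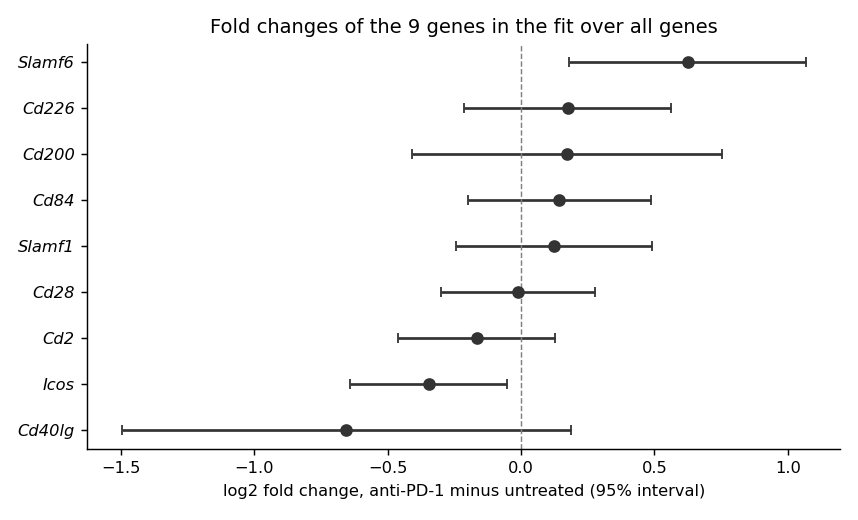
Log2 fold change (x axis, anti-PD-1 minus untreated) of the 9 genes from edgeR's fit over all genes, with 95% intervals. The interval lies above 0 for Slamf6 and below 0 for Icos, neither of which passed after adjustment, and it crosses 0 for the other 7 genes.

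Per length of exon, the order of levels in untreated libraries was Icos (545 ± 59.9 CPM per kb), Cd2 (381 ± 34.9), Cd28 (91.4 ± 3.16), Slamf1 (47.7 ± 6.77), Cd226 (37.4 ± 1.94), Cd84 (24.0 ± 0.809), Slamf6 (22.1 ± 1.78), Cd200 (12.9 ± 0.793) and Cd40lg (12.5 ± 1.34). Icos, Cd2, Cd28, Slamf1 and Cd226 kept these places in all 6 libraries. Cd84 and Slamf6 stood in opposite order in the groups. Cd84 was the higher in all 3 untreated libraries, from 23.1 to 24.6 CPM per kb against 20.4 to 23.9 for Slamf6. Slamf6 was the higher in all 3 anti-PD-1 libraries, at 42.1, 31.3 and 28.3 CPM per kb against 24.2, 30.4 and 24.9 for Cd84. This order rests on the exon lengths, 6253 bases for Cd84 and 2443 for Slamf6. In CPM, Cd84 was the higher in all 6 libraries. Some of these gaps were small, and the change of order was not tested. Cd200 and Cd40lg did not differ beyond their spread in untreated libraries, and Cd200 was the higher in each anti-PD-1 library. Summed, the 9 genes took 2871 to 3289 CPM in untreated and 2443 to 2863 CPM in anti-PD-1 libraries. Icos was the highest single contributor in each, at 1619 to 1993 and 1157 to 1525 CPM. The sum therefore follows Icos and does not describe the 9 genes as a set, 5 of which had log2 fold changes above 0.

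Each profile was compared with those of 5519 other tested genes with a mean of at least 20 CPM, by the root-mean-square difference of centred log2 CPM over the 6 libraries. For Icos, the nearest profiles were those of Atp2c1 (0.0494) and Hif1a (0.0501), where the median over all others was 0.322. The nearest of 5519 genes lies below the median by construction. The profiles also hold the group difference, so a near gene can be one with a like fold change (Hif1a -0.36, Icos -0.35). Nearness was not tested for any of the genes. Slamf6 had no profile as near, with Rras2 at 0.107 and Phc2 at 0.108 and a median of 0.436. Its own profile also varied more, with a root-mean-square spread of 0.351 against 0.236 for Icos. For Cd28 the nearest profiles were those of Rnf2 and Map3k1, for Cd226 2810474O19Rik and Slc2a3, and for Cd2 Cenpq and Cd53. For Slamf1 they were Prps2 and Hiat1, for Cd84 Ubap1 and Fryl, and for Cd200 Dnajc2 and Atxn2l. These 12 lay between 0.0282 and 0.104. The Cd28 profile was itself nearly flat, with a spread of 0.0388, so nearness to it shows little beyond a flat profile. Cd40lg was under the minimum level for this comparison.

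Ligands, relatives and signalling partners of the 9 genes were taken as 7 lists, with 54 genes tested in all. In edgeR's fit over the whole table none was called (0.029% of all genes were). At an unadjusted p under 0.05, 4 were lower and 6 higher, where 4.08% and 4.23% of all tested genes stood. Their median log2 fold change was 0.03.

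In the list of the CD28 family and its ligands, 4 of 9 tested genes lay below 0 and 5 above. Besides Ctla4, Cd80, a ligand of CD28 and CTLA-4, had an unadjusted p under 0.05. It stood at 31.7, 32.3 and 30.5 CPM in untreated and 45.9, 47.4 and 44.1 CPM in anti-PD-1 libraries, with no overlap (log2 fold change 0.54 ± 0.25, SE, edgeR adjusted p = 0.572). The other CD28 ligand gene, Cd86, stood at 23.9 ± 11.9 and 23.3 ± 5.96 CPM. Dendritic cell markers, which accompany these ligands in antigen-presenting cells, summed to 1.97 to 16.2 CPM untreated and 8.65 to 15.7 CPM after anti-PD-1. Clec9a was at 0 in all libraries, and the part of such cells in the Cd80 values was not tested.

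Among the CD226 and nectin family, 4 of 8 listed genes were tested, and 3 of them lay above 0. The ligand gene Pvr stood at 43.9, 30.2 and 42.5 CPM untreated and 53.3, 60.6 and 56.7 CPM after anti-PD-1, a log2 fold change of 0.54 ± 0.24 (SE, edgeR adjusted p = 0.552). Cd96, another receptor for PVR, was at 0.58 ± 0.23 on the log2 scale and Tigit at -0.49 ± 0.21, both with overlapping groups. In the SLAM list, 9 of 13 genes were tested, 4 below 0 and 5 above. The phosphatase gene Ptpn6 (SHP-1) stood at 69.9 ± 8.84 and 46.3 ± 8.55 CPM (log2 fold change -0.60 ± 0.23, SE, edgeR adjusted p = 0.496). Sh2d1a, which encodes SAP, was at 21.7 ± 9.95 and 22.9 ± 9.14 CPM, and Ly9 and Cd48, from the same cluster as Slamf6, were at log2 fold changes of 0.03 ± 0.18 and 0.06 ± 0.19.

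Genes of CD28 and ICOS signalling were evenly split, with 8 of 15 below 0 and 7 above. Prkcq, the kinase PKC-theta that relays CD28 signals to NF-kappaB, stood at 149, 142 and 151 CPM untreated and 222, 201 and 223 CPM after anti-PD-1. Its groups were far apart, and its log2 fold change of 0.55 ± 0.16 (SE) had an unadjusted edgeR p of 0.00201 and an adjusted p of 0.378, the lowest in the 7 lists. Pik3cd, the PI3-kinase catalytic subunit of leukocytes, was at 0.60 ± 0.23 (SE, edgeR adjusted p = 0.508). It stood at 42.9, 90.4 and 81.5 CPM untreated and 91.6, 125 and 109 CPM after anti-PD-1. The groups were thus barely apart, and untreated library 1 was far the lowest. The adaptor Grb2 was at -0.38 ± 0.18. Traf1, an adaptor of TNF receptors, was the only gene of the CD40 ligand and CD200 list with an unadjusted p under 0.05, at 0.399 ± 0.17. None of the 4 CD2 partners had one, with the smallest p at Cd2bp2 (-0.17 ± 0.27). The same held for the 4 regulators of Icos, among them Rc3h1, which encodes the Icos mRNA repressor roquin (-0.06 ± 0.16), and Nfatc2 (0.23 ± 0.17), which had the smallest p.

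**Figure D4:**
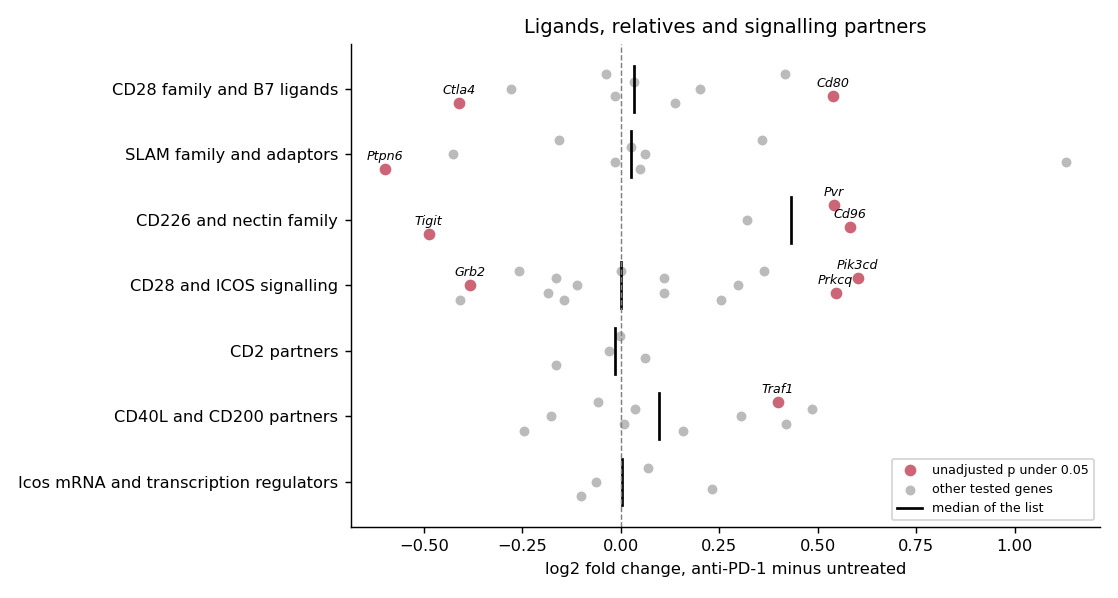
Log2 fold change (x axis, anti-PD-1 minus untreated) of each tested gene in the 7 lists (rows); named points had an unadjusted p under 0.05, and vertical lines are medians. List medians lie between -0.02 and 0.43, and none of the 54 genes passed after adjustment.

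The size of each fold change was recomputed under 16 alternatives: other tools, scalings and filters, and each library left out in turn. Icos stayed between -0.42 and -0.23, Cd40lg between -0.74 and -0.57, and Slamf6 between 0.43 and 0.74. None of the 9 genes passed under any of the alternatives, and the adjusted p ran from 0.366 to 0.919 for Icos and from 0.256 to 0.832 for Slamf6.

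**Figure D5:**
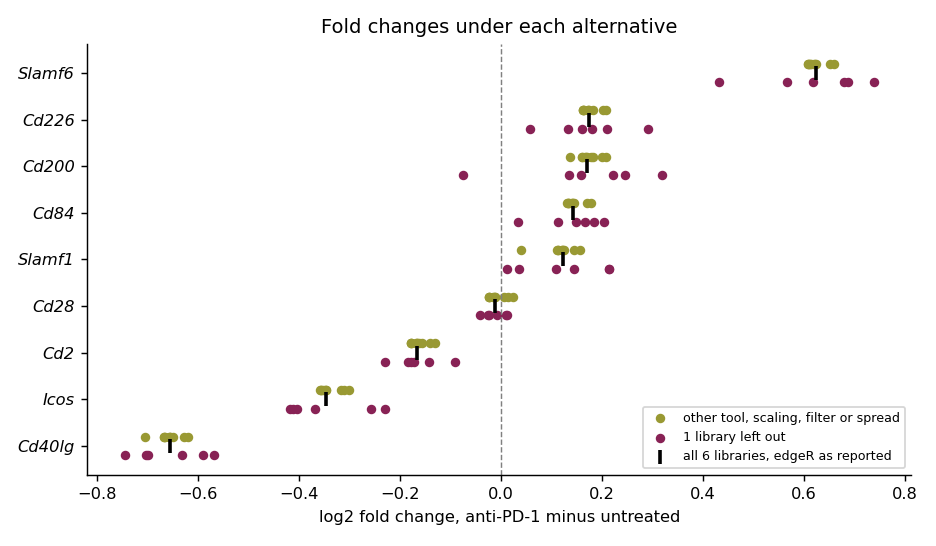
Log2 fold change (x axis, anti-PD-1 minus untreated) of the 9 genes as reported (black bar), with 1 library left out (purple) and under another tool, scaling, filter or spread estimate (olive). Slamf6 stays above 0 and Icos, Cd2 and Cd40lg below 0 under each alternative, while Cd28 lies on both sides of 0.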

How the data were processed

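RNA of sorted tumor Tregs was sequenced in 6 libraries (NuGEN Ovation SoLo). The authors deposited raw fragment counts per gene, using UCSC gene models of mm10 and strand setting 1 in featureCounts 1.5.2, per the file headers. DESeq2, FastQC and bcl2fastq are named in the submitters' processing notes. How duplicate reads were treated, and the aligner's settings, are not stated in the labels or header. The exon lengths behind values per kilobase come from the same deposited table. 1 further column, without a name and holding 6 values, was not used.

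The counts were tested with edgeR 4.0.16 in R 4.3.3: filterByExpr at its defaults (a count of 10, 15 in total), TMM scaling, glmQLFit with robust shrinkage and its current method (legacy off), and two-sided glmQLFTest with treatment as the only term. Adjustment was by Benjamini-Hochberg over 10352 genes at 0.05. SEs and 95% intervals come from this fit. The test was tested on simulated counts. Libraries were compared in pairs by a chi-square of their counts, and the lowest value, 8.66 per degree of freedom, showed no copies. Alternatives used DESeq2 1.42.0, limma 3.58.1 (voom), other scalings and filters, and each library left out; the earlier quasi-likelihood method was added after seeing the data. The 9 genes, the ratios and the lists were chosen with earlier results of these data known. Of 110 listed genes, 6 matched by a synonym and 1 by none. From each list, the genes with an unadjusted p under 0.05, or else the smallest p, were named by rule, together with Ctla4 and Tigit for the ratios and 2 nearest profiles for each gene. Cd86, Sh2d1a, Ly9, Cd48 and Rc3h1 were named beyond this rule, after their values were seen. Promoter windows and start sites are from RefSeq.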

Additional observations from a re-analysis of the deposited data

How the results depend on the processing

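The number of genes called over the whole table depended most on the processing. Against 3 in edgeR with all libraries, it was 34 with DESeq2, 5 with limma-voom, 12 with limma-voom and quality weights, 5 with upper quartile scaling, 7 with total counts only, 52 without a filter and 5 without robust shrinkage, and it ran from 1 to 19 when 1 library was left out (19 when this was untreated library 1, 1 when it was anti-PD-1 library 5). It was 3 with RLE scaling, with a filter of 1 CPM and with the earlier quasi-likelihood method. None of these calls was 1 of the 9 genes. Cd28, close to 0, changed sign with quality weights (0.0058), upper quartile scaling (0.024), total counts only (0.015) and without untreated library 1 (0.011) or anti-PD-1 library 4 (0.012; range with 1 library left out -0.041 to 0.012). Cd200 changed sign without anti-PD-1 library 6 (-0.075; range with 1 library left out -0.075 to 0.319). The other 7 genes and the 4 ratios kept their direction in all alternatives run, with the Cd226 to Tigit difference from 0.374 to 1.007 and that of Icos to Cd28 from -0.436 to -0.197. Without 1 library, several values besides Cd28 and the ratios moved by over 1.5 times. Icos went to -0.23 without anti-PD-1 6, and Cd200 to 0.319 without anti-PD-1 4. Cd226 went to 0.057 without anti-PD-1 4 and 0.29 without 6. Slamf1 went to 0.013 without untreated 1, 0.037 without anti-PD-1 5, and 0.22 without untreated 3 or anti-PD-1 6. Cd84 went to 0.033 without anti-PD-1 5 and Cd2 to -0.090 without untreated 2. The cause was not tested. No paired analysis was possible because the groups share no replicate numbers. Counts of 46 to 96 fragments limit the precision for Cd40lg.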
